A study of Mus musculus with 2 samples.

Results

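Among 33783 peaks listed for the sWGA precipitation, 844 were both strong and compact: they lay on chromosomes 1 to 19, held at least 18 sWGA tags and were at most 400 bp long. They made up 2.50% of all listed peaks and 11.9% (95% exact interval 11.2 to 12.7) of the 7065 autosomal peaks with at least 18 tags. The other 6221 strong autosomal peaks were longer than 400 bp. These 844 peaks were chosen by their tags and length, so both are given below as a description with no test, and the same holds for fold, score and tag density, which derive from the same tags. Neighbours and chromosomes did not enter the rule, while the length limit bounds how far a summit can lie from the middle of its region.

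The study mapped Oct4 bound to chromatin together with the lectin sWGA in mouse embryonic stem cells of the line ZHBTc4 F-Oct4, whose Oct4 carries a Flag tag. In the sWGA group, cross-linked chromatin sheared to 100 to 500 bp was taken up with anti-Flag antibody, released with Flag peptide and then bound to sWGA beads, which were eluted with 0.5 M GlcNAc. In the control group the same Flag eluate went through a mock second step, which the labels call an input, an IgG step and plain agarose beads in different fields. Each group had 1 library, so every value below is a single measurement, p-values between groups cannot be given, and the intervals cover counting error only. The labels do not say whether the cells were 1 clone or how many cultures were pooled.

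Oct4, encoded by Pou5f1, is a POU-domain transcription factor that sustains pluripotency and often binds DNA beside Sox2. ZHBTc4 cells are known as embryonic stem cells whose Oct4 comes from a transgene that tetracycline can switch off. O-GlcNAc is a single sugar that the enzyme Ogt attaches to serines and threonines of nuclear and cytoplasmic proteins and that the enzyme Oga removes, and sWGA is a modified wheat germ lectin that binds this sugar. Many chromatin proteins carry O-GlcNAc, so a lectin step on cross-linked chromatin can retain DNA through Oct4 or through a protein bound nearby. In such data a sequence-specific factor usually gives short regions of piled-up fragments, while longer regions can hold several sites. Genes beside the peaks and their DNA sequences were not analysed here, because positions are in mm9 and no genome or annotation of that build was used.

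The 844 compact peaks carried many tags on little DNA. Together they covered 292083 bp and held 20434 tags, which is 0.333% of the 6129874 filtered sWGA tags and 3.96% of the tags in all listed peaks. A median compact peak was 351 bp long (quartiles 321 and 380, shortest 206) and held 22 tags (quartiles 19 and 26, highest 111). Evenly spread tags would have put 1.15 tags in a region of that length. Many of these peaks stood close to the lower limit of tags: 354 held 18 to 20 tags, 141 held at least 30, 39 held at least 40 and 21 held at least 50. At the edges of the rule, 173 compact peaks held exactly 18 tags while 137 autosomal peaks of at most 400 bp held 17 and were left out. Likewise 205 were 381 to 400 bp long, and 195 strong autosomal peaks of 401 to 420 bp were left out. The limits therefore cut through a continuous range of tags and lengths.

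**Figure D1:**
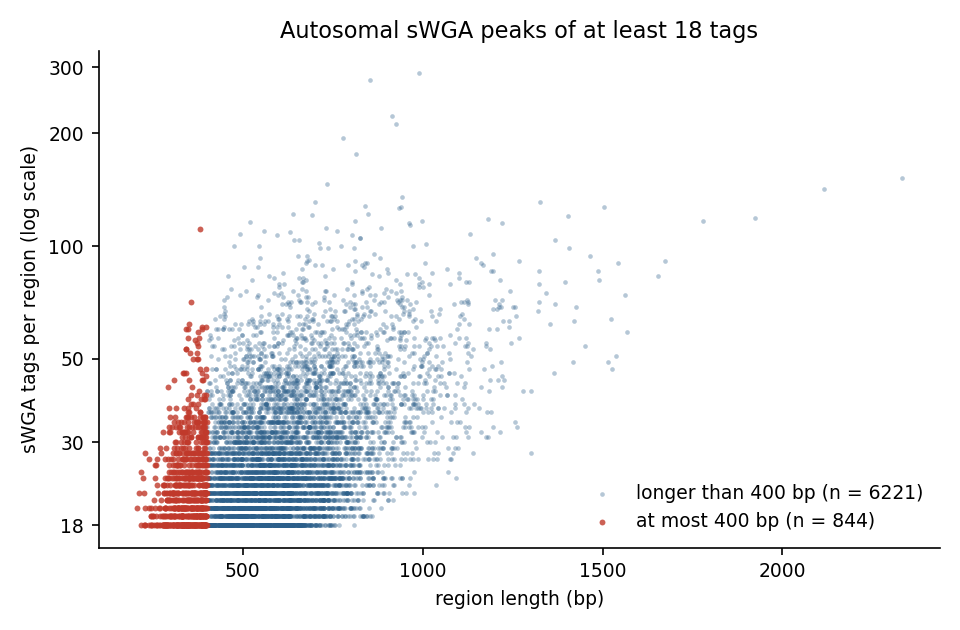
Length of each autosomal sWGA peak of at least 18 tags (x axis, bp) against its tags (y axis, log scale), each point 1 peak, with the 844 peaks of at most 400 bp in red and the 6221 longer ones in blue. The compact peaks form the left edge of 1 continuous cloud, and a single compact peak, with 111 tags, stands above 71.

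Tag density set these peaks apart by construction, and its size was as follows. The median was 6.43 tags per 100 bp (quartiles 5.54 and 7.85, range 4.50 to 29.1). Longer strong peaks had a median of 4.37 tags per 100 bp (quartiles 3.58 and 5.69) although their median of 26 tags was higher, and weak peaks of at most 400 bp had a median of 3.21. The density also varied with length among the compact peaks themselves, from a median of 7.27 tags per 100 bp in the 154 peaks under 310 bp to 5.67 in the 205 peaks of 381 to 400 bp. The median number of tags was 20 in the shortest and 22 in the longest of these classes. The shortest of all lay on chromosome 10 at 107840471 to 107840676, where 20 tags stood on 206 bp.

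Most of the fragments in a compact peak overlapped at 1 point. The height of the tag pile at the summit could be read back from the deposited fold for 834 of the 844 peaks. It had a median of 19 tags (quartiles 16 and 23), and it took in a median of 88.9% of the peak's tags (quartiles 80% and 93.0%). In longer strong peaks the median height was 16 tags and the median share 61.9%. At equal tags the difference in height remained. Among peaks of 18 to 20 tags scored against the genome-wide background, the median height was 16 tags in 286 compact peaks and 12 in 1160 longer ones. Among those of over 35 tags it was 38 tags in 37 compact peaks and 29 in 1165 longer ones. A shorter region forces more overlap between fragments of a fixed length, so these heights describe the shape of the peaks and add no evidence to the rule.

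At the same background the height also set the deposited fold of these peaks, while the score did not follow the height alone. For example, 18 tags on 387 bp gave a fold of 23.62 on chromosome 12 at 47614415 and of 31.49 on chromosome 3 at 105230625. Both regions had the genome-wide background and a score of 156.45. Fold is that height over an expected number of tags, and the score is the caller's p-value as a negative log10, multiplied by 10. The compact peaks had a median fold of 35.43 (quartiles 27.55 and 41.33) and a median score of 201.5, while longer strong peaks had a median fold of 27.55 and a median score of 184.84. A score of at least 100 was reached by 806 of the 844, against 33.9% of all listed peaks, and nothing is read from this since tags chose the peaks. The caller's FDR had a median of 23.47% and stood at 100% for 42 compact peaks. In weak peaks of at most 400 bp its median was 4.08%, and it stood at 100% for 0 of 13199. This FDR thus ran higher in stronger peaks and is not read here as a share of false peaks. The cause was not tested.

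Summits lay near the middle of the compact peaks, as the limit on length partly fixes. The summit was a median of 25.5 bp (95% order-statistic interval 23.5 to 27.5) from the midpoint of the region, and it was over 50 bp away in 111 of 844 peaks (13.2%, 10.9 to 15.6). In longer strong peaks the median was 76 bp (74.5 to 77.5), and 66.5% of summits (65.3 to 67.7) were over 50 bp away. Weak peaks of at most 400 bp, which share the limit, had a median of 28 bp (27 to 29). Their summits were over 50 bp away in 30.2% of cases (29.4 to 31.0) and within 1 bp in 35.1%, against 17.4% of strong compact peaks within 1 bp. The gap was about the same size at each tag number. The median distance from the midpoint was 25.2 bp in compact peaks of 18 to 20 tags and 76 bp in longer peaks of 18 to 20 tags. Above 35 tags the medians were 26 bp (18.5 to 30.5) and 76.5 bp (72 to 81.5). Summits fell on either side of the midpoint in similar numbers, 331 towards the start of the region and 366 towards its end, with 147 within 1 bp of it.

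Among the 844 peaks the distance from the midpoint rose with the length of the region, while its median stayed between 23.25 and 27.5 bp in all tag classes. Weak peaks under the same length limit had a different spread, as given above, so strength is not set aside in general. A region under 310 bp is shorter than 2 of the caller's 155 bp fragments laid end to end. Fragments that fill it must therefore all share a stretch, except just below that limit. The centre of that stretch is the midpoint of the region. Of the 122 compact peaks under 310 bp with the genome-wide background, 115 had a summit as high as their number of tags. At these lengths that background was read only where the summit took in at least 90% of the tags, so this count is partly set by the reading. In all 115, the longest of 307 bp, the summit was within 1 bp of the midpoint. Full height and a central summit at these lengths thus follow from the fragment length and are no result about these peaks. From 310 bp upwards the fragments at both ends of a region cannot overlap. No compact peak of that length could therefore reach its full number of tags, and none with that background did. The median distance from the midpoint then grew from 21 bp at 310 to 350 bp to 35.5 bp at 351 to 380 bp and to 45 bp at 381 to 400 bp. The distance to the nearer end of the region hardly moved: its median was 142.5 bp under 310 bp and at most 150 bp in each longer class. Over all 844 peaks it was 146 bp (quartiles 138 and 151), just under 1 fragment length.

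**Figure D2:**
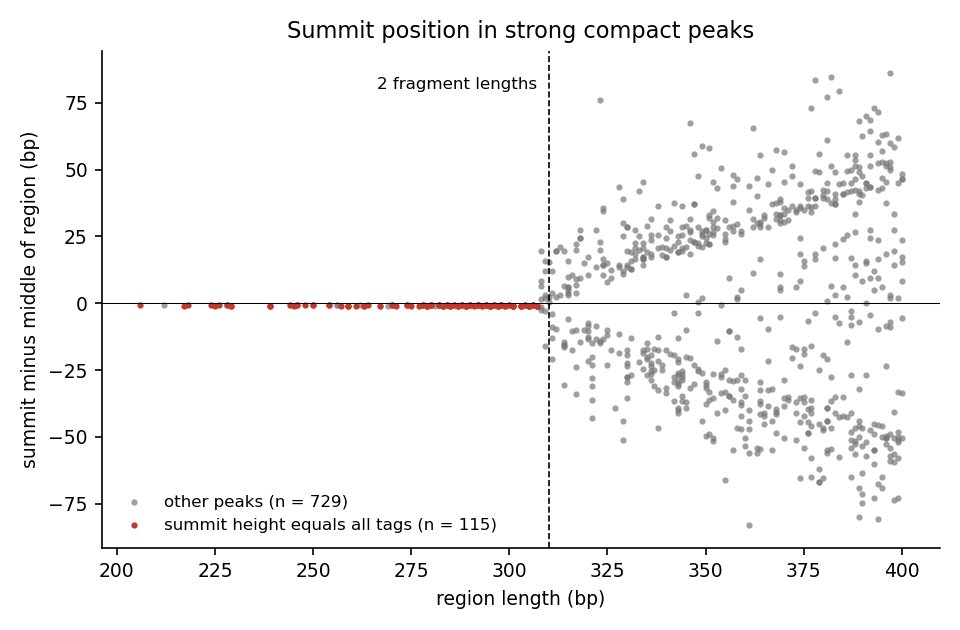
Summit position relative to the midpoint of the region (y axis, bp) against region length (x axis, bp) for the 844 strong compact peaks, each point 1 peak, with the 115 peaks whose summit height equals all of their tags in red and a dashed line at 310 bp. Left of the line summits sit on the midpoint in nearly all peaks, which the fragment length sets. To the right they split into a branch on either side of it, where the median distance reaches 45 bp in the longest class.

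Compact and longer strong peaks did not differ in isolation beyond counting error. The nearest other listed sWGA summit on the chromosome was a median of 14.0 kb away (12.1 to 15.7), with quartiles of 4.09 and 36.8 kb. For longer strong peaks the median was 12.7 kb (12.1 to 13.3). No other summit lay within 20 kb of 345 compact peaks, or 40.9% (37.5 to 44.3), against 38.8% (interval 37.6 to 40) of longer strong peaks. The difference of 2.10 percentage points had a 95% Newcombe interval from -1.38 to 5.67, which includes 0. With a length limit of 450 bp it was 2.95 points (0.112 to 5.81), and with at least 25 tags -0.582 points (-6.39 to 5.58). It was also within counting error at each tag number, at 2.44 points (-3.22 to 8.23) for 18 to 20 tags and -4.44 points (-15.6 to 8.93) above 35 tags. Isolation over 50 kb was found for 156 compact peaks (18.5%) and isolation over 100 kb for 49 (5.81%).

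Strong compact peaks differed in isolation from weak peaks under the same length limit. Lengths were not matched, and their medians were 351 bp in the strong compact and 334 bp in the weak compact peaks. Of the 13199 autosomal peaks of at most 400 bp with fewer than 18 tags, 48.7% (47.8 to 49.5) had no other summit within 20 kb, and their median distance was 18.9 kb. The share was 7.79 points lower in the strong compact peaks (interval from 4.33 to 11.2 points lower). A strong neighbour within 20 kb was found for 24.1% of strong compact peaks (21.2 to 27.1), for 17.7% of weak compact peaks (17.1 to 18.4) and for 25.4% of longer strong peaks (24.3 to 26.5). Weak peaks longer than 400 bp were isolated in 46.4% of cases (45.5 to 47.2), so the share differed more between strong and weak peaks than between compact and longer ones. Within the 844 peaks the isolated share was 42.7% (37.4 to 48.0) at 18 to 20 tags, 41.6% (35.5 to 47.9) at 21 to 25 tags, 38.8% (31.6 to 46.3) at 26 to 35 tags and 32.7% (20.7 to 46.7) in the 55 peaks above 35 tags. These intervals overlap, so no trend with tags is claimed among them.

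**Figure D3:**
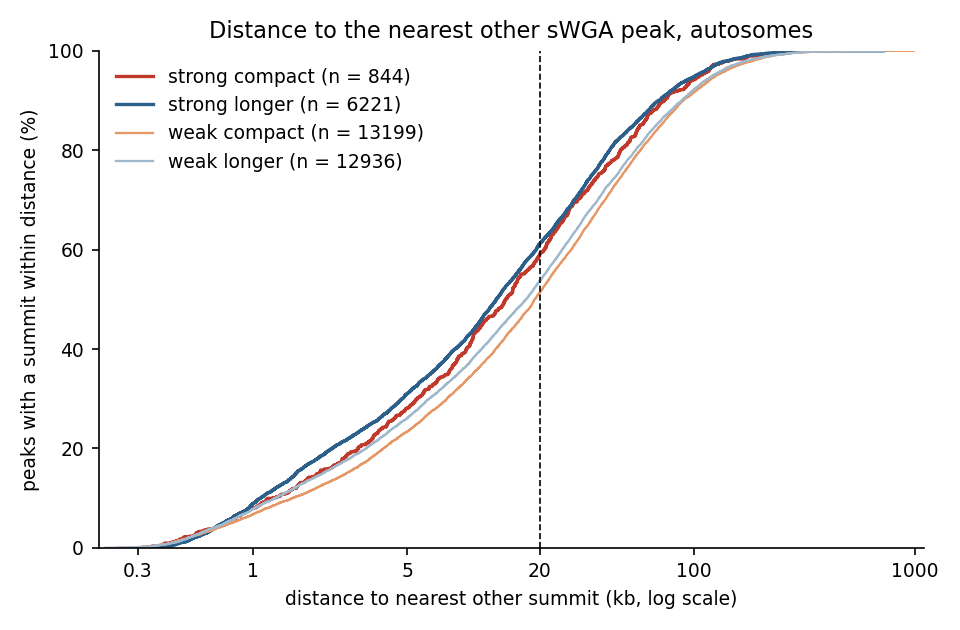
Cumulative share of autosomal peaks (y axis, %) whose nearest other sWGA summit lies within the distance on the x axis (kb, log scale), for strong and weak peaks of at most 400 bp (compact) and over 400 bp (longer), with a dashed line at 20 kb. The curves of the strong classes run close together and above those of the weak classes at 20 kb, where 40.9% of strong compact and 48.7% of weak compact peaks are still without a neighbour.

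The nearest peak was strong for 207 of the 844 compact peaks (24.5%, 21.7 to 27.6), beside 21.3% strong peaks among all autosomal peaks. The share was 3.73 points higher than for weak compact peaks (0.859 to 6.82). For longer strong peaks it was 25.5%, and the interval of the difference from them (-3.99 to 2.20 points) included 0. The nearest peak held a median of 12 tags, and all autosomal peaks held a median of 11. By class, the nearest peak was weak and compact for 321, weak and longer for 316, strong and longer for 189 and strong and compact for 18. Strong longer peaks were the nearest peak in 22.4% of cases and made up 18.7% of autosomal peaks. Strong compact peaks were the nearest in 2.13% and made up 2.54%.

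A small set stood directly beside another peak. The nearest summit was within 1 kb for 67 compact peaks (7.94%, 6.20 to 9.97), against 8.92% (8.22 to 9.66) of longer strong peaks. The gap between the edges of the regions in these 67 cases had a median of 229 bp and was under 100 bp in 15 of them. The closest summits were 319 bp apart, on chromosome 12, where a compact peak of 23 tags at 54133891 to 54134170 was preceded by a weak peak of 9 tags at 54133535 to 54133852. Whether such neighbours are separate sites or 1 stretch called as several regions was not tested.

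Some compact peaks came in pairs of their own kind. Of the 844, 20 had another strong compact peak within 10 kb, in 10 pairs on 7 chromosomes. The tightest pair was on chromosome 11, where a region of 21 tags at 40507859 to 40508201 and a region of 18 tags at 40508301 to 40508634 had summits 484 bp apart with 99 bp between their edges. On chromosome 4, regions of 31 tags at 137333865 to 137334244 and of 23 tags at 137334744 to 137335089 had summits 959 bp apart. The paired peak with the most tags held 38, on chromosome 2 at 181653264 to 181653618, with a region of 18 tags 1223 bp away. At the other extreme, a peak of 18 tags on chromosome 15 at 70754390 to 70754678 had its nearest listed neighbour 263 kb away, the largest distance among the 844.

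Control tags lay near a minority of the compact peaks, at a rate within counting error of that for longer strong peaks. The caller scored a peak against the genome-wide expectation of 0.508 tags per fragment length unless control tags nearby gave a higher one. The fold of 664 compact peaks (78.7%, 75.8 to 81.4) was read as whole tags over that genome-wide value, and the other 180 (21.3%, 18.6 to 24.2) were counted as having a higher local one. Longer strong peaks had a local background in 21.9% of cases (20.9 to 23.0), a difference of -0.583 points (-3.41 to 2.48). Of the 180, 138 had a fold that gave whole tags over an expectation of 1.21, the value for 1 control tag in 10 kb, 32 gave whole tags for 2 such tags, and 10 matched neither. The 10 included regions of 309 bp on chromosome 7, at 4453694 with 18 tags and at 65924108 with 19, whose folds were 31.49 and 33.46. Over an expectation of 1.21 these folds would need more tags than the regions held, so a local background is not shown for them. The local background lowered the fold and not the tags: peaks with it had a median of 23 tags and a median fold of 14.84, and those without it 22 tags and 37.39. All 38 compact peaks with a score under 100 had a local background. The control library kept 78351 tags and was 78.2 times shallower, so 1 or 2 control tags set the value in 170 of these 180 peaks. Of the compact peaks with a local background 48.9% (41.4 to 56.4) were isolated by over 20 kb, and of the others 38.7% (35 to 42.5), a difference of 10.2 points (2.06 to 18.3). This comparison was chosen after the values were seen. Regions of the control list itself were rarely near, since 13 compact peaks had one within 20 kb and 39 (4.62%) within 100 kb, against 6.08% of longer strong peaks within 100 kb.

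Every autosome held strong compact peaks. Their number ranged from 25 on chromosome 14 to 81 on chromosome 2, and their density averaged 0.341 per Mb, or 1 peak in 2.93 Mb of the listed span. Chromosome 11 had the highest density, 0.492 per Mb from 60 peaks, which was 1.48 times that of all other autosomes (95% exact interval 1.12 to 1.92). Chromosome 2 had 0.446 per Mb and 1.34 times the others (1.05 to 1.68). Chromosome 14 was the sparsest at 0.200 per Mb and 0.573 times (0.369 to 0.852), followed by chromosome 13, with 28 peaks, at 0.671 times (0.443 to 0.977). The intervals of the other 15 autosomes included 1. With intervals at 95% on 19 autosomes and no adjustment for their number, those of chromosomes 2 and 13 end near 1. None of these 4 calls held under every other setting. With a limit of 450 bp the ratio was 1.08 for chromosome 2 (0.887 to 1.32) and 0.814 for chromosome 13 (0.613 to 1.06). Per listed peak in place of per Mb, chromosome 11 was at 1.17 times (0.882 to 1.52) and chromosome 14 at 0.678 times (0.436 to 1.01).

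Chromosomes 11 and 14 showed the same direction in longer strong peaks, and chromosomes 2 and 13 did not. Longer strong peaks stood at 1.46 times (1.32 to 1.61) on chromosome 11 and at 0.692 times (0.602 to 0.791) on chromosome 14. On chromosome 2 they were at 0.997 times (0.904 to 1.1) and on chromosome 13 at 1.04 times (0.928 to 1.17). Compact peaks thus took 15.1% (12.2 to 18.4) of the strong peaks on chromosome 2, which was 3.40 points above the other autosomes (0.504 to 6.76). On chromosome 13 they took 8.16% (5.49 to 11.6), which was -3.98 points from the other autosomes (-6.56 to -0.510). The interval of this difference included 0 for the other 17 autosomes. The rule left out chromosome X, where 27 of 147 strong peaks were compact (18.4%, 12.5 to 25.6), and chromosome Y, which had 0.

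**Figure D4:**
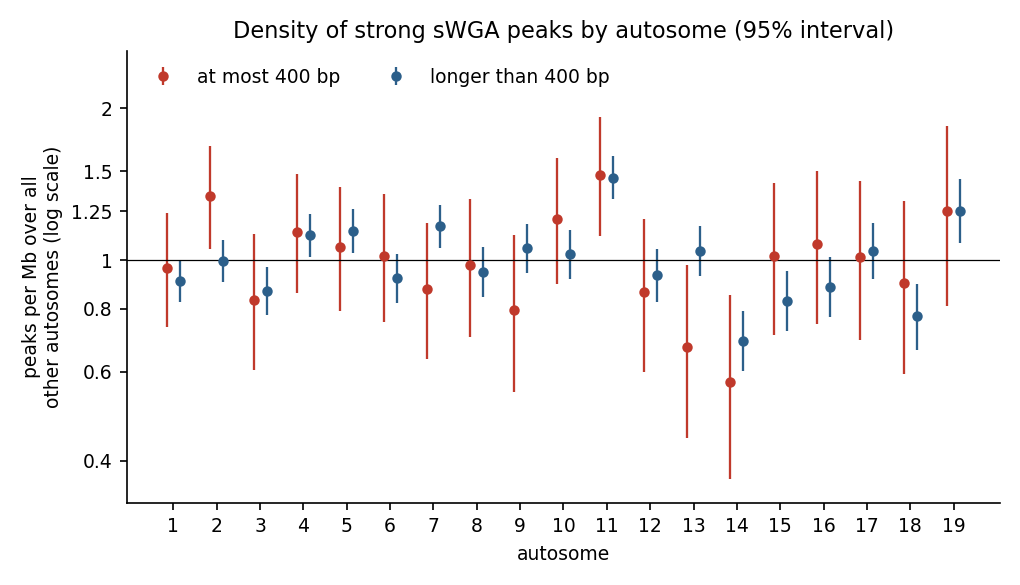
Density of strong sWGA peaks per Mb on each autosome divided by that of all other autosomes (y axis, log scale), for peaks of at most 400 bp (red) and longer ones (blue), each point a ratio with its exact 95% interval. Red intervals lie above 1 on chromosomes 2 and 11 and below 1 on chromosomes 13 and 14.

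Isolation also varied between chromosomes, within wide intervals. The share of compact peaks without a neighbour in 20 kb was lowest on chromosome 17, at 7 of 33 or 21.2% (8.98 to 38.9), and highest on chromosome 14, at 13 of 25 or 52.0% (31.3 to 72.2). On chromosome 2, 39 of 81 (48.1%, 36.9 to 59.5) were isolated, and on chromosome 11, 22 of 60 (36.7%, 24.6 to 50.1). The median number of tags per compact peak stayed between 20 and 24 on all 19 autosomes.

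The compact peak with the most tags lay on chromosome 4 at 153349020 to 153349400. It held 111 tags on 381 bp, or 29.1 tags per 100 bp, and the pile at its summit was 99 tags high. The deposited fold was 194.85 and the score 1720.21. Its summit was 1 bp from the midpoint, as in only 2 of the 205 peaks of 381 to 400 bp. The nearest other peak, 18.0 kb away, held 31 tags. No other compact peak came close to it: the next held 71 tags, and the density of the next was 19.9 tags per 100 bp.

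That next peak lay on chromosome 10 at 59604520 to 59604876 and held its 71 tags on 357 bp. Its fold was 27.63, which is whole tags over the expectation from 2 control tags within 10 kb, at a summit height of 67 tags. Then came a region on chromosome 13 at 48255522 to 48255871, with 62 tags on 350 bp. These were also the 3 densest compact peaks, the last at 17.7 tags per 100 bp. Its fold of 4.95 and score of 80.23 were the lowest among the 12 compact peaks with the most tags. With 1 control tag in 10 kb its summit height would be 6 tags, too few for 62 tags on 350 bp, so more control tags or a nearer one must have set its background. The background of that peak was not resolved further.

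Chromosome 11 gave 2 of the 12. One spanned 55760160 to 55760557 and contained 61 tags, with a fold of 37.93. The other spanned 61770028 to 61770395 and contained 56 tags, with a fold of 44.53. Both had the background of 1 control tag in 10 kb. On chromosome 5, the region from 31495355 to 31495742 contained 61 tags with a fold of 21.03 and had the closest neighbour of the 12, a peak of 18 tags at 1.94 kb. On chromosome 6, the region from 81915830 to 81916177 contained 57 tags with a fold of 42.06 and was the most isolated of the 12, with 75.5 kb to the nearest peak.

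The remaining 5 had the genome-wide background and folds of about 100. On chromosome 8, 58 of the 60 tags between 23521622 and 23521964 (343 bp) overlapped at the summit, for a fold of 114.15. On chromosome 1, the 60 tags between 64931528 and 64931875 gave a fold of 110.22. A second region on chromosome 13, from 54213778 to 54214164, also contained 60 tags, its fold was 104.31, and its nearest neighbour was 46.4 kb away. The region on chromosome 12 ran from 12810464 to 12810838, and its 59 tags gave a fold of 98.41. The region on chromosome 16 ran from 31948382 to 31948759, and its 57 tags gave a fold of 108.25.

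As a set, the 12 lay on 10 chromosomes and were 343 to 398 bp long, so none came from the shortest class. Their summits were 0.5 to 37 bp from the midpoint, and 4 of the 12 were isolated by over 20 kb. A local background was found for 6 of the 12, beside 32.7% (20.7 to 46.7) of the 55 compact peaks above 35 tags, 21.3% of all 844 and 8.14% of weak compact peaks. These shares cover listed peaks only. Among the 844 the median score was 127.2 with a local background and 213.2 without, and weak compact peaks had a median score of 78.7. Weak peaks with a local background may thus have missed the caller's cutoff, which was not tested, so no trend with tags is read. The FDR given by the caller, which ran higher in stronger peaks, was 100% for 10 of them and 4.46% for the peak on chromosome 13 with the fold of 4.95.

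**Figure D5:**
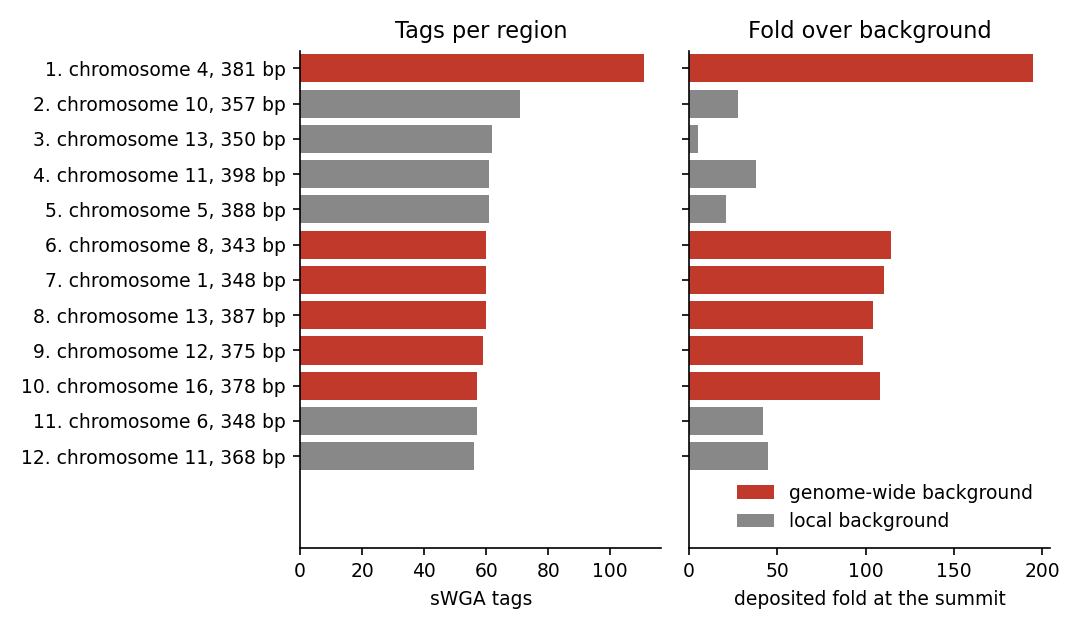
Tags per region (left, x axis in tags) and deposited fold at the summit (right, x axis as a ratio) of the 12 strong compact peaks with the most tags, each bar 1 peak named by chromosome and length, red with the genome-wide background and grey with a local one. Tags fall from 111 to 56 in order, while the fold is 98.41 or more in the red bars and 44.53 or less in the grey ones.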

How the data were processed

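The members and lists were chosen with earlier results of these data known. The authors deposited 1 region list per library, in mm9 per the submitters' processing notes. The aligner is not given in the sources used here. Per the file headers, regions were called per library, without pooling, by MACS 1.4.1 (p cutoff 1.00e-05), with fragments of 155 bp and at most 2 (sWGA) or 1 (control) tags per position. After filtering, 6129874 of 16695056 sWGA tags and 78351 of 366466 control tags remained. The deposited tags are unscaled counts, the deposited fold is a ratio of summit height to expectation, the deposited score is a p-value on a negative log10 scale, multiplied by 10, and the deposited FDR is a percent.

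The control list is named as the exchanged run and was used only for distances and spans. Start, end and summit offset were used as deposited, per the file headers, and other columns of both lists as needed. A background was read from the fold where it gave whole tags within 0.01 (0.02 for 2 control tags) that did not exceed the peak's tags and were at least 90% of the pile that fragments must form in that length. Densities used the last position listed per chromosome. Shares have exact (Clopper-Pearson) 95% intervals, differences Newcombe intervals and medians order-statistic intervals. These treat peaks as independent, which neighbours are not. Regions named are the 12 with the most tags (ties by fold) and the 3 densest. The closest, most isolated and shortest regions and the pairs were chosen after their values were seen. Of chromosomes, the 2 highest and 2 lowest ratios were named by rule. A planned search for genes and motifs needed an mm9 genome and was not run. Alternatives were other tag and length limits, background, distance measures and chromosome denominators. Distance and interval steps were tested on simulated data. Python 3.11.15, numpy 2.4.6, pandas 2.3.3, scipy 1.17.1, statsmodels 0.14.6 and matplotlib 3.10.9 were used.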

Additional observations from a re-analysis of the deposited data

How the results depend on the processing

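No paired analysis was possible because there was a single library per group, so no replicate could be left out. The limits of the rule set the number of peaks: 844 became 266 with at least 25 tags, 418 with at most 350 bp and 1426 with at most 450 bp. Under the same 3 limits the median density was 8.67, 6.89 and 5.98 tags per 100 bp. The median distance of the summit from the midpoint was 13.8 bp with at most 350 bp, 34.5 bp with at most 450 bp and, added after seeing the data, 30.5 bp for regions of at least 310 bp. The nearest summit was a median of 10.9 kb away with at least 25 tags and 73.1 kb away when only strong neighbours counted. The isolated share was 57.2% at over 10 kb, 18.5% at over 50 kb, 75.9% with strong neighbours only and 36.8% with at least 25 tags. Isolation of compact minus longer strong peaks, whose alternatives were all added after seeing the data, turned to -0.582 points with at least 25 tags (-6.39 to 5.58) and was 2.95 points with at most 450 bp, where its interval (0.112 to 5.81) excluded 0. The cause was not tested. The 4 autosomes whose interval excluded 1 became 2 per listed peak and 1 with at least 25 tags, where fewer peaks remained. Of 95 alternative ratios of single autosomes 83 kept their call, 9 lost it, 3 gained one and 0 changed side of 1 after being called. Chromosome 2 came to include 1 with at most 350 bp and at 1.08 times with at most 450 bp. Chromosome 13 did so with all 3 other limits, and chromosomes 11 and 14 did so per listed peak and with at least 25 tags.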
